A study of Mus musculus with 19 samples.

Results

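The comparison described here is the step from 2 w to 4 w after CAWS administration in DBA/2 mice. It sets the arrays titled for DBA/2 mice at 4 w, replicates 1 and 2, against those titled for DBA/2 mice at 2 w, replicates 1 and 2, which makes 4 of the 19 arrays and 18 RNA samples of the series. The study followed gene expression in blood leukocytes of DBA/2 and C57BL/6 (B6) mice from 0 w to 9 w, counted from the last of a course of daily intraperitoneal injections of CAWS, the Candida albicans water-soluble fraction, a complex of mannoprotein and β-glucan shed into the culture medium by this yeast. CAWS causes a vasculitis of the coronary arteries and aorta in both strains, which is often fatal in DBA/2 mice. All 4 samples came from male DBA/2 mice that had received CAWS and no other treatment, and they differ in the week of sampling. The strain itself is known to lack complement C5. No age is given by group. Each array was hybridized with RNA of an individual mouse, caught from whole blood on the LeukoLOCK leukocyte filter, and only mice that had survived to the sampling week could be sampled, so that the mice at 4 w are survivors of a further 2 weeks. Of the 2 w samples, replicate 2 is titled as a replicate like the others but carries the words technical replicate in another label. It was counted as a separate sample by its title. Its values do not settle the matter, since Pearson's r across the probes was 0.980 with replicate 1, against 0.971 for the 4 w pair and 0.975 for a pair of arrays hybridized with 1 RNA (B6 at 0 w). If the other label holds, 2 w has 1 sample and the spread at 2 w is technical.

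Blood leukocytes are a mixture of neutrophils, lymphocytes and monocytes. Monocytes leave the marrow, patrol the vessels and become macrophages in inflamed tissue, and macrophages that meet interferon gamma or interleukin 4 take on different programs. Complement is a cascade of plasma proteins that tags microbes and damaged cells, and although the liver makes most of it, monocytes and macrophages make C1q, factor B and C3 themselves. In RNA from a mixture of cells, fewer cells of a type and less RNA per cell cannot be told apart, and this holds for every gene below.

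Levels are given as log2 signal minus the array's 75th percentile, so that 0 is the level of that percentile and a difference of 1 is 2-fold. They serve to compare a probe between arrays and not one probe with another. The share of spots that Feature Extraction called well above background was 49.5% and 46.8% on the 2 w arrays, 51.3% on the array of 4 w replicate 1 and 34.9% on that of 4 w replicate 2, which stands apart. The headers of the scans put both replicate 1 arrays on 1 slide and both replicate 2 arrays on another, so the step was measured once within each slide. Leukocyte identity genes were well above background on all 4 arrays. All 6 had a higher mean at 4 w, with a median change of 0.32, and 2 of them passed the test described next, among them Ptprc (CD45), which rose by 0.37 ± 0.07 (SE), from 3.33 and 3.31 to 3.71 and 3.67.

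Of 22934 probes tested with limma over the whole series, 2129 (9.28%) passed an adjusted p of 0.05 between 2 w and 4 w. Of these, 1096 (4.78%) were higher and 1033 (4.50%) were lower at 4 w, and 202 and 183 of them changed by 2-fold or more. The median change of all tested probes was -0.02. All 2129 changed in the same direction within both slides, and their values at 4 w lay on 1 side of both values at 2 w, as did those of 50.5% of all tested probes. Of the 13909 tested probes that were measured well above background by each of the 4 arrays, 1843 (13.3%) were past the threshold and 81.8% had the same sign on both slides. The counts of list members below are to be read beside these shares. The counts of probes depend strongly on the processing. With normexp background correction of the pixel values 92 probes passed, 45 of them higher, and with each array scaled to its median 574 passed, 359 of them higher. With the slide as a random block 3977 probes passed (2150 higher and 1827 lower), and with the slide as a fixed block 3010. The fit of the 4 arrays alone passed 0 probes, with 3930 at an unadjusted p under 0.05.

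**Figure D1:**
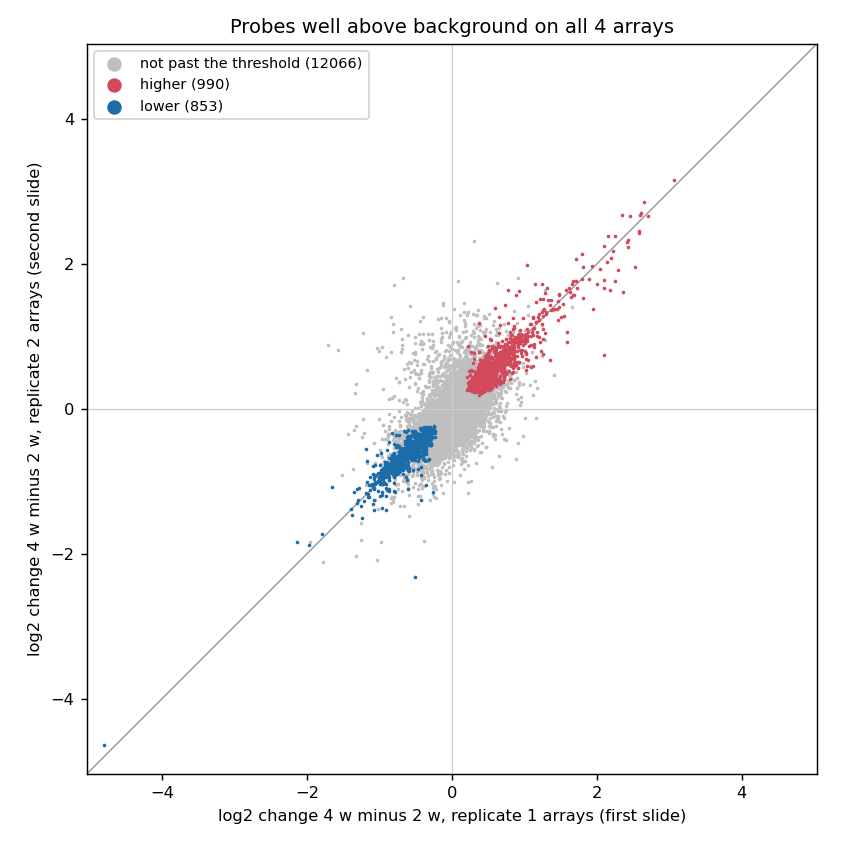
Change from 2 w to 4 w in DBA/2 leukocytes measured within each slide, for the 13909 tested probes that each of the 4 arrays measured above background. The x axis is the log2 difference between the replicate 1 arrays and the y axis that between the replicate 2 arrays, each point is a probe, and the line marks equal change. The 990 probes called higher and the 853 called lower lie in the upper right and lower left parts of the plot, with Syngr1 alone near -4.72.

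Most of the 15 largest rises were those of genes of monocytes, macrophages, complement and chemokines. Others among them were Saa3, with 2.69, Prg4, with 2.36 ± 0.10, and Cbr2, with 2.20 ± 0.49. Fn1, fibronectin, which monocytes and macrophages make, stood at -3.74 and -4.02 on the 2 w arrays and at -1.12 and -1.32 on the 4 w arrays (probe mapped across chr1:71524056-71526293, mm8). Both 4 w values lay far above both 2 w values, and the rise of 2.65 ± 0.26 was 6.30-fold (limma adjusted p = 0.000392). Its other probes rose by 1.74 each. Of 20 blood monocyte genes tested, 13 rose and 0 fell, with a median of 0.84. Nr4a1, a nuclear receptor needed by patrolling monocytes, rose from 0.65 and 0.55 to 2.22 and 2.19. Ccr2, the chemokine receptor by which inflammatory monocytes leave the marrow, rose from -0.92 and -0.99 to 0.56 and 0.59. For both genes the weeks lay far further apart than the replicates of a week. Klf4, a factor of monocyte differentiation, rose by 1.30 ± 0.11, Cx3cr1, the fractalkine receptor of patrolling monocytes, by 1.17 ± 0.15, and Csf1r, the receptor for macrophage colony-stimulating factor, by 1.11 ± 0.13, with 1.32 and 0.07 for its other probes. Lyz2 (lysozyme) and Cd14 (a coreceptor for endotoxin) rose by smaller amounts, 0.51 and 0.63.

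Of 9 splenic and tissue macrophage genes tested, 6 rose and 0 fell, with a median of 1.07. Adgre1, which encodes the macrophage antigen F4/80, rose from -1.21 and -1.26 to 0.52 and 0.40, a change of 1.70 ± 0.09 (limma adjusted p = 1.51e-05). Cd163, the scavenger receptor for hemoglobin, was not well above background on either 2 w array, at -6.30 and -6.55, and was measured on both 4 w arrays, at -3.46 and -3.58, so that it was at least 3.66-fold higher (limma adjusted p = 0.00051). With normexp its change was 0.52 and did not pass. Spic, a factor of red pulp macrophages, rose by 1.12, Cd68 by 1.07, the scavenger receptor gene Marco by 0.74 and Hmox1, which degrades heme, by 0.74. Cd5l, a protein secreted by macrophages, had a change of 1.53 that did not pass (limma adjusted p = 0.0764).

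Genes of alternative activation, the program that interleukin 4 and interleukin 13 induce in macrophages, had a median of 1.70 over 10 genes tested, of which 6 rose and 1 fell. This median was 0.281 with normexp and 0.705 with a floor of 10 on the signal. Retnla, a secreted resistin-like protein, is represented by a pair of probes that both passed. The dimmer probe (chr16:48763950-48764009, mm8) stood at -3.35 and -3.68 at 2 w and at -0.70 and -0.82 at 4 w, a rise of 2.75 ± 0.12, and the brighter probe rose by 2.51 ± 0.11. Clec10a, a galactose-binding lectin of macrophages and dendritic cells, rose from -3.05 and -3.29 to -0.90 and -0.91. Tgm2, transglutaminase 2, rose by 1.13. Arg1 (arginase 1), the eosinophil chemokine Ccl24 and the lipoxygenase gene Alox15 were not above background at 2 w. They were at least 1.27-fold, 2.55-fold and 4.19-fold higher at 4 w, where Alox15 was above background on both arrays and the other two on 1. With normexp their changes were 0.18, 0.31 and 0.49, and none passed. Chil3, a chitinase-like protein that neutrophils also carry, went the other way and fell by 0.54 ± 0.12. Of 11 basophil and eosinophil genes tested, 2 rose, among them Cpa3, a carboxypeptidase of mast cells and basophils, with 0.92, and the type 2 cytokine gene Il4 rose from -4.26 and -4.22 to -2.57 and -2.66.

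**Figure D2:**
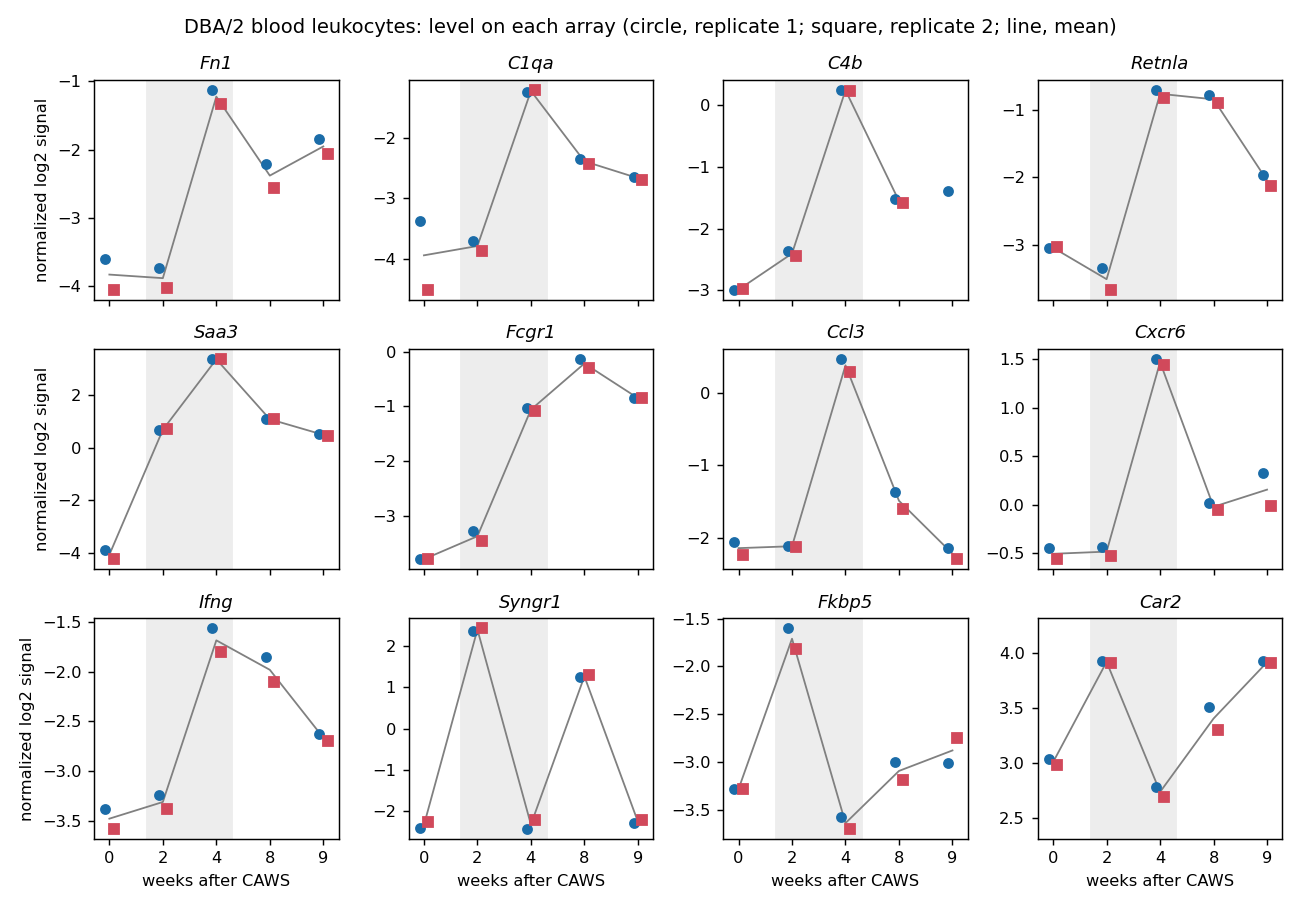
Normalized log2 signal (y axis) of 12 genes on each DBA/2 array against weeks after CAWS administration (x axis, evenly spaced), with 2 w and 4 w shaded. Circles are replicate 1, squares replicate 2, and lines join the means, with no mean for C4b at 9 w, where 1 array was marked as an outlier. Fn1 rose by 2.65 and Saa3 by 2.69 between the shaded weeks, Syngr1 fell by 4.72 and stood high again at 8 w.

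Complement genes of the initiating arm rose for 4 of 11 tested and fell for 0, with a list median of 0.41 that turned to -0.11 under normexp background correction, where the median of all probes was also -0.11. The median was 1.18 by the mean of each gene's tested probes. Over the 8 genes with a probe well above background in at least 9 of 18 samples it was 1.27. C1qa, 1 of the 3 chains of C1q, stood at -3.70 and -3.87 at 2 w and at -1.25 and -1.21 at 4 w (chr4:136168570-136168629, mm8). C1qc, the gene of another chain, stood at -3.24 and -3.15 and then at -0.82 and -0.82. Both were apart between the weeks by over 2 log2 units and rose by 2.56 ± 0.28 and 2.38 ± 0.25 (limma adjusted p = 0.000597 and 0.000499). The probe for C1qb, the third chain, split by replicate instead, at 0.03 and 1.22 at 2 w and at -0.03 and 1.00 at 4 w, and its change of -0.15 did not pass (limma adjusted p = 0.917). C4b, whose product is cleaved by the classical and lectin pathways, rose from -2.36 and -2.45 to 0.24 and 0.23, 6.23-fold (chr17:34337472-34337531, mm8), and its near-copy C4a could share its probe. Fcna, ficolin A, which recognizes sugars on microbes, rose from -4.30 and -4.16 to -1.87 and -1.94. The lectin genes Mbl1 and Mbl2 were not above background at either week.

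Among C3 and the components of the alternative and terminal pathways, 2 of 9 tested genes rose. The list's median of 0.48 turned to -0.07 with normexp. Over the 3 genes with a probe well above background in at least 9 of 18 samples it was 1.38. Cfb, factor B of the alternative C3 convertase, rose from -3.88 and -4.01 to -1.69 and -1.93, and C3 from 0.85 and 0.84 to 1.86 and 1.82. Those changes were 2.14 ± 0.11 and 1.00 ± 0.07 (limma adjusted p = 1.32e-05 and 6.23e-05). The terminal genes C8a, C8b, C8g and C9 were not above background on any of the 4 arrays, and Hc, which encodes C5, was above it on 1 array of each week. Of 12 regulators tested, 2 rose and 1 fell, and the median of 0.13 changed sign under 5 of the alternatives. Cfhr2 rose by 1.89 ± 0.14. Cd59a, which blocks the membrane attack complex, fell by 0.84, from 0.65 and 0.64 to -0.16 and -0.23. Of 7 complement receptor genes tested, 5 rose, from 0.36 for Itgax to 0.73 for Cr2, and 0 did with normexp, with each array scaled to its median or without a filter on dim probes.

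The liver is a main source of complement and acute phase proteins, and hepatocyte genes were followed beside them. Of 15 tested, 5 were well above background on all 4 arrays and 9 on none. Alb, albumin, stood at -3.73 and -3.90 at 2 w and at -4.64 and -3.18 at 4 w, with overlapping groups. Fabp1 was the single member past the threshold, with a rise of 1.49 ± 0.19 from -3.82 and -4.23 to -2.51 and -2.56. The summed level of the list, as log2 of the summed signals, was -0.09 and 0.74 at 2 w and -0.23 and 0.65 at 4 w, so that the weeks overlapped. The part of hepatocyte RNA in the rises of complement genes, acute phase genes and Fn1 was not tested. Of 12 acute phase genes tested, 4 rose. Saa3, a serum amyloid A that macrophages make, stood at 0.68 and 0.71 at 2 w and at 3.38 and 3.37 at 4 w, a rise of 2.69 ± 0.48 on top of a level of -4.07 at 0 w. Saa1 rose from 1.43 and 1.74 to 2.93 and 3.00. Its sequence is close to that of its paralog Saa2, which its probe could also bind. Lbp, which carries endotoxin to Cd14, was at least 3.12-fold higher. With normexp the change of Lbp was 0.48 and did not pass. Cebpd, a factor that drives acute phase genes, rose by 0.39.

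Receptors for antibody and for fungal sugars were followed as separate lists. Of 10 Fc receptor and adaptor genes tested, 6 rose and 0 fell, with a median of 0.66. Fcgr1, the high-affinity receptor for immunoglobulin G, rose from -3.28 and -3.47 to -1.04 and -1.08, 4.98-fold (limma adjusted p = 4.19e-06), and its other probe had a change of 1.22 that did not pass. Fcgr2b, the inhibitory receptor, rose by 0.94 and Fcgr3 by 0.76. Of 12 genes of fungal recognition tested, 8 rose and 0 fell, with a median of 0.55. Tlr2 led them, from -1.95 and -2.02 to -0.92 and -0.92, followed by Lgals3 (galectin 3) with 0.88 and Tlr4 with 0.82. Clec7a, which encodes the β-glucan receptor Dectin-1, rose by 0.53, from 2.18 and 2.18 to 2.78 and 2.63. The adaptor gene Myd88 rose by 0.57 and the lectin gene Clec4e by 0.59.

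Of 11 chemokine ligands tested, 5 rose. Ccl3 and Ccl4, which draw monocytes and activated T cells, led them. Ccl3 stood at -2.11 and -2.13 at 2 w and at 0.47 and 0.30 at 4 w. Ccl4 stood at -2.51 and -2.46 and then at 0.07 and -0.01. Both rose by 2.51 with no overlap between the weeks. Ccl9 rose by 1.22 and Xcl1, a product of NK cells and CD8 T cells, by 1.27. Of 16 inflammatory cytokine and feedback genes tested, 4 rose, and the list's median of 0.27 turned to -0.06 with normexp. Il1b rose from 2.67 and 2.57 to 3.58 and 3.55, and Il6, not above background at 2 w and above it on 1 array at 4 w, was at least 2.14-fold higher. With normexp the change of Il6 was 0.12 and did not pass. Of 6 phagocyte oxidase genes tested, 5 rose, by 0.36 to 0.55, and Rac1 fell by 0.36. Of 9 MHC class II genes tested, 5 rose, from 0.41 for H2-DMa to 0.81 for H2-Eb1.

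**Figure D3:**
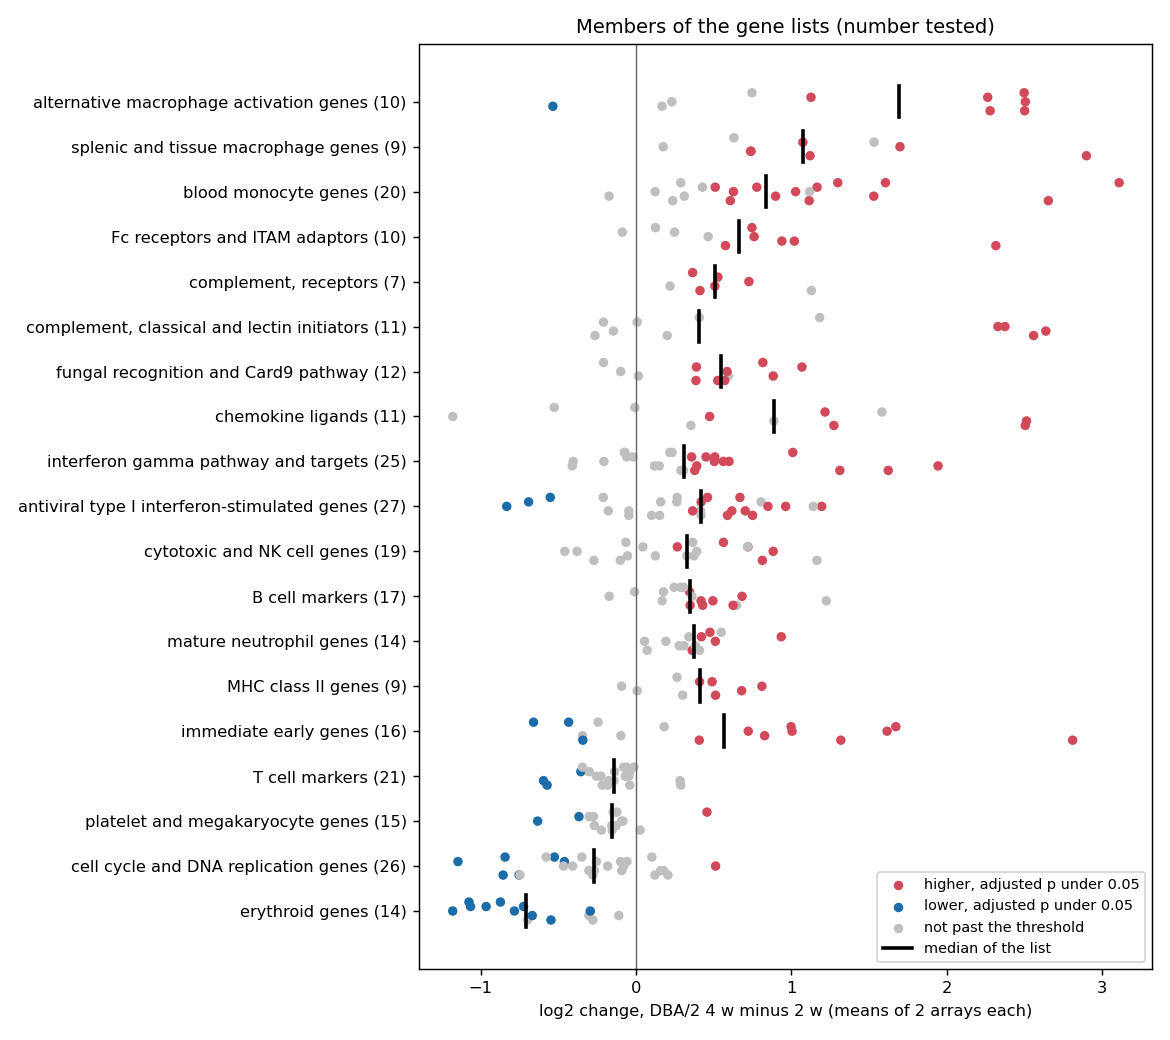
Log2 change from 2 w to 4 w in DBA/2 leukocytes (x axis) for the tested members of 19 gene lists (rows, number tested in brackets), 1 point per gene by its brightest probe. Red points are higher and blue points lower at a limma adjusted p under 0.05, grey points did not pass, and black bars are list medians. The monocyte and macrophage lists sit right of 0, with medians of 0.84 and 1.07, and the erythroid list left of it, with -0.71.

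Ifng, the gene of interferon gamma itself, which NK cells and T cells make to activate macrophages, stood at -3.24 and -3.38 at 2 w and at -1.57 and -1.80 at 4 w, a rise of 1.62 ± 0.12 (limma adjusted p = 0.0001). Its other probe rose by 1.64. Of 25 genes of the interferon gamma pathway and its targets, 12 rose and 0 fell, with a median of 0.31. With the slide as a random block 13 rose and 3 fell. The median is close to that of the leukocyte identity genes (0.32), as are those of the cytotoxic, B cell and mature neutrophil lists below. Most of the changes were small, such as 0.56 for Irf8, 0.60 for Ifngr2, a chain of its receptor, and 0.50 for the GTPase gene Gbp2. Il12rb1, a chain of the receptor through which interleukin 12 induces Ifng, rose by 1.01. The chemokine genes Cxcl9 and Cxcl10 were not above background at 2 w and were above it on 1 array each at 4 w. Cxcl10 was at least 1.19-fold higher, and for Cxcl9, at means of -6.78 and -5.46, no fold can be given. With normexp the changes of Cxcl9 and Cxcl10 were -0.02 and 0.04, and neither passed.

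Cytotoxic and NK cell genes rose for 5 of 19 tested, with a median of 0.33, among them Il2rb, a chain of the receptors for interleukins 2 and 15, with 0.88, Fasl with 0.81, although its other probe changed by 0.03, and Prf1 (perforin) with 0.72. T cell markers, in contrast, had a median of -0.14, which no scaling between arrays turned to 0.13, and 3 of 21 fell, Cd8b1 by 0.60, Lef1 by 0.57 and Cd6 by 0.36. The other probes of Cd8b1 and Cd6 changed by 0.19 and -0.08. Of 15 genes of T cell activation and helper fate tested, 3 rose, Il4, Cxcr3 and Bcl6, with a median of 0.15. Of 10 chemokine receptor genes tested, 3 rose and 1 fell. Cxcr6, a chemokine receptor of effector T cells and NKT cells, rose from -0.43 and -0.53 to 1.50 and 1.44 (limma adjusted p = 2.82e-05). Cxcr3, the receptor for Cxcl9 and Cxcl10, rose from -0.73 and -0.63 to 0.25 and 0.30. Among B cell markers 7 of 17 rose, by 0.34 to 0.68, with a median of 0.35, and both probes tested for Ms4a1 (CD20) passed.

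Antiviral genes, which interferons of type I induce through the factor complex that binds the ISRE promoter element, split. Of 27 tested, 11 rose and 3 fell, with a median of 0.42. Oas1a, whose product senses double-stranded RNA, rose from -3.07 and -3.24 to -1.95 and -1.98. Ifit3, which blocks translation of foreign RNA, rose from -0.82 and -1.01 to 0.11 and -0.02. Bst2 (tetherin) rose by 0.85 and the RNA sensor gene Ifih1 by 0.59. Rsad2 (viperin) went the other way, from 7.15 and 7.07 to 6.29 and 6.27, with falls of 0.97 and 0.94 for its other probes. Isg15, a ubiquitin-like modifier, fell from 2.17 and 2.01 to 1.44 and 1.35. In both of these the 4 w values lay below both 2 w values and above the 0 w mean, which was 6.13 for Rsad2 and 0.36 for Isg15. Isg20 fell by 0.55.

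**Figure D4:**
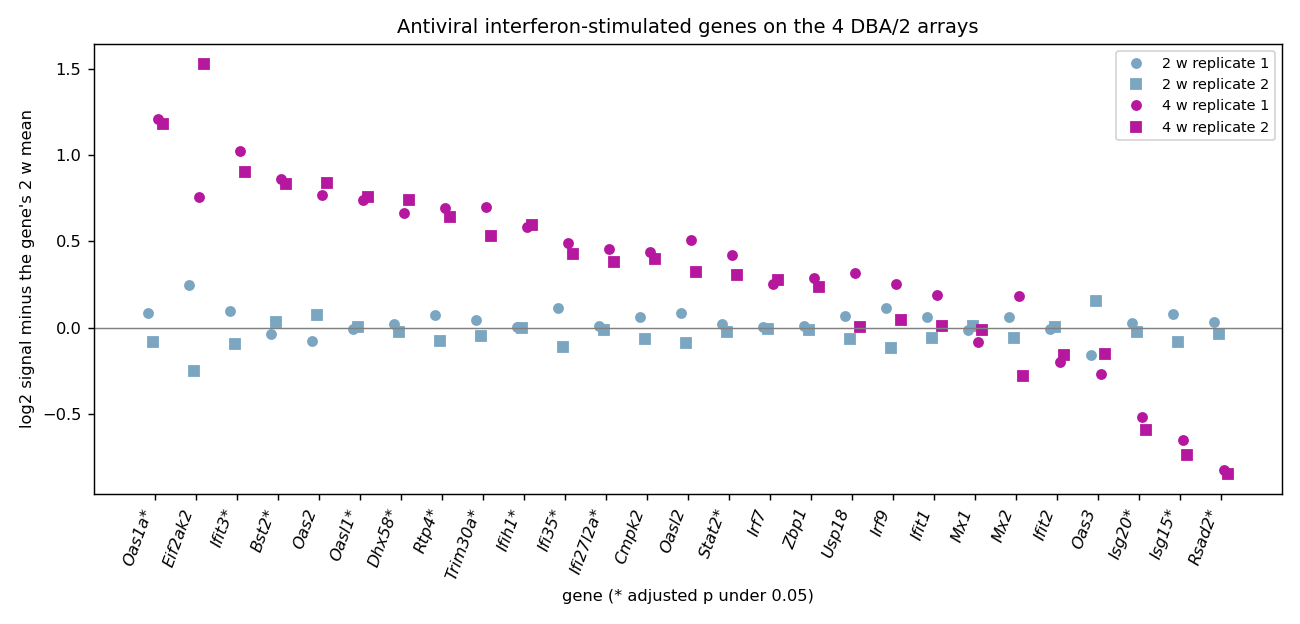
Log2 signal of 27 antiviral interferon-stimulated genes on the 4 DBA/2 arrays, each minus the gene's 2 w mean (y axis), ordered along the x axis by their change. Blue symbols are 2 w and purple symbols 4 w, circles replicate 1 and squares replicate 2, and asterisks mark an adjusted p under 0.05. Oas1a, with a change of 1.20, and Rsad2, with -0.83, stand at opposite ends, each with close replicates.

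The promoters of 6 interferon-responsive genes that moved in either direction, and that of Fcgr1, the Fc receptor gene with the largest rise, are shown because they let the genes that rose and fell be read side by side. They are the RefSeq sequences of GRCm38.p6, from 250 bases before to 50 after the gene's start, on the gene's strand. Capitals mark, on either strand, the core of the interferon-stimulated response element (GAAA, any 2 bases and GAAA again) in the first 6, and the GAS element, TTCNNNGAA, named for its activation by interferon gamma, in Fcgr1. Overlapping matches are merged. Each promoter shown holds the element marked in it, and genes that moved and lack it, such as Isg20 for the ISRE core, are not shown. Cxcl10 (chr5:92348840-92349139, minus strand), Ifit3 (chr19:34583279-34583578, plus), Oas1a (chr5:120907476-120907775, minus) and Gbp2 (chr3:142620413-142620712, plus) rose or, for Cxcl10, were at least 1.19-fold higher. Isg15 (chr4:156200769-156201068, minus) and Rsad2 (chr12:26456403-26456702, minus) fell, and Fcgr1 (chr3:96293920-96294219, minus) rose. With normexp the change of Cxcl10 was 0.04 and did not pass.
Cxcl10: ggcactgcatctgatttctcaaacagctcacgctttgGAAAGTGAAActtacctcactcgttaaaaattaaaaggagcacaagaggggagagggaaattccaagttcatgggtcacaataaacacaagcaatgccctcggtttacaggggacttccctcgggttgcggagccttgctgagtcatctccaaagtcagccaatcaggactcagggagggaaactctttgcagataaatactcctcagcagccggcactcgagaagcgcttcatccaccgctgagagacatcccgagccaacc
Ifit3: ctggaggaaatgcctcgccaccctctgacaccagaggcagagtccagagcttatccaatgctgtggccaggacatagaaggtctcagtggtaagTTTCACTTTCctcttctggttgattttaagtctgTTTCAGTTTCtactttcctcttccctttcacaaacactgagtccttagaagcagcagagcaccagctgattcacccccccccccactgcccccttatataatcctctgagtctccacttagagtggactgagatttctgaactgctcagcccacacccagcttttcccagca
Oas1a: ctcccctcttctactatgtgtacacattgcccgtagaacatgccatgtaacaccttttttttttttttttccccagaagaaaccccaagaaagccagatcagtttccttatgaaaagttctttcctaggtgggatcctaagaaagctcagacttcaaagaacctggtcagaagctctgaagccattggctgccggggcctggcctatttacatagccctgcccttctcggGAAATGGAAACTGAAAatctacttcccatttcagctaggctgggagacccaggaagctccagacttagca
Gbp2: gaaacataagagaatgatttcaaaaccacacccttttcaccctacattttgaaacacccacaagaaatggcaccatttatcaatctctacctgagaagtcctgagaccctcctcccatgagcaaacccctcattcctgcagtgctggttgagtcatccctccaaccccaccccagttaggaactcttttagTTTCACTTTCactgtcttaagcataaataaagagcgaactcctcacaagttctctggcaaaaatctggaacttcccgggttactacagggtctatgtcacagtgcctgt
Isg15: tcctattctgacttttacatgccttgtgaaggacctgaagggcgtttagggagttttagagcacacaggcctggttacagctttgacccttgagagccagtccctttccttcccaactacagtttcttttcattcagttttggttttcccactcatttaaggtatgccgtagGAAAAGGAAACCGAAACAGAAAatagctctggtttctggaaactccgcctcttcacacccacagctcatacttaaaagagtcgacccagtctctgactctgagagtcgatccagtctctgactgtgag
Rsad2: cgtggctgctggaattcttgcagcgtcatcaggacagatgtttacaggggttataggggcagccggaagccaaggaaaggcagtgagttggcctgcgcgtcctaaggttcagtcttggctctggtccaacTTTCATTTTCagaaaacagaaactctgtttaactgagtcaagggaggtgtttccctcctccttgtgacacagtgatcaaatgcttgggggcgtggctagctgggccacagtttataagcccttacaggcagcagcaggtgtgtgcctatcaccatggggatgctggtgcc
Fcgr1: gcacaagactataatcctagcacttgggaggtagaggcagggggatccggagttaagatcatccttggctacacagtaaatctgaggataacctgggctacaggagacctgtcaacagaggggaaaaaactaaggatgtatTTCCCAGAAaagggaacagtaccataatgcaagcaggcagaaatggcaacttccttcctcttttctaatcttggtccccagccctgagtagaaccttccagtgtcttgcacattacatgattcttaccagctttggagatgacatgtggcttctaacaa
The ISRE core occurs once in Cxcl10, Gbp2 and Rsad2, 2 times in Ifit3 and Oas1a and 3 times, overlapping, in Isg15. It is found in 3.44% of 32851 RefSeq promoters of this length, and GAS in 8.3%. By gene, as in the counts that follow, the shares are 3.99% and 9.55% of 27025 genes. Of the antiviral genes that rose, 6 of the 8 with a promoter in the table hold the ISRE core, of the 3 that fell, Isg15 and Rsad2 hold it, and of those not past the threshold, 3 of 8. In the interferon gamma list the ISRE core is in 3 of 9 promoters of genes that rose and in 7 of 10 of those not past the threshold, and GAS in 2 of 9 and 6 of 10. Such a match is a description of the letters and not a site in use.

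Neutrophil genes were grouped by the stage at which they are made. Of 14 genes of mature neutrophils tested, 5 rose, with a median of 0.37, led by Padi4, which modifies histones when neutrophils release chromatin, with 0.93. S100a8, a subunit of calprotectin, rose from 3.95 and 3.85 to 4.27 and 4.25. Of 8 secondary granule genes, Camp (cathelicidin) and Cybb rose, by 0.55 and 0.93, and Mmp8 and Chil3 fell, by 0.64 and 0.54. None of 4 primary granule genes passed with limma.

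The largest fall by far was that of Syngr1, a membrane protein of small secretory vesicles. It stood at 2.37 and 2.43 at 2 w and at -2.42 and -2.22 at 4 w (chr15:79940606-79940665, mm8), a fall of 26.3-fold (limma adjusted p = 4.91e-08). The mean stood at -2.33 before (0 w), and later at 1.27 (8 w) and -2.25 (9 w). In DBA/2 mice it was thus high at 2 w and 8 w and low at the other weeks. Both replicates of each week were close together. In B6 mice the means of this probe were 1.85 (0 w), 2.21 (2 w), 2.06 (4 w) and 1.08 (8 w), with no low week among them. Whether the DBA/2 pattern goes with the week or with other differences between the mice was not tested. Fkbp5, a cochaperone of steroid receptors and a textbook target of glucocorticoids, fell from -1.60 and -1.82 to -3.58 and -3.69. Ddit4, which restrains mTOR and is also induced by glucocorticoids, fell from 2.62 and 2.45 to 0.83 and 0.73. Both 4 w values were below both 2 w values and below the 0 w means of -3.28 and 1.83. Mthfd2, a mitochondrial enzyme of one-carbon metabolism, fell by 1.24, Nqo1, a quinone reductase of the oxidative stress response, by 1.20, and Pik3ip1, an inhibitor of phosphoinositide 3-kinase, by 1.27. The ubiquitin-conjugating enzymes Ube2s and Ube2o fell by 1.42 and 1.30. The others of the 15 largest falls were Mmrn2, Sec14l3, Btnl10, Creb3l3, Adamtsl3, Tmem52b and Prpf18, with falls between 1.24 for Prpf18 and 1.98 for Mmrn2. Sec14l3 differed between slides, with -0.51 on the first and -2.32 on the second.

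Erythroid genes were the list with the lowest median, -0.71 over 14 tested, of which 10 fell and 0 rose. Car2, carbonic anhydrase 2, stood at 3.93 and 3.91 at 2 w and at 2.78 and 2.69 at 4 w. Epb42, a protein of the red cell membrane skeleton, stood at -0.17 and -0.17 and then at -1.13 and -1.36. Tfrc, the transferrin receptor, fell by 1.07 and Slc4a1, the anion exchanger of red cells, by 0.97. All 14 had 4 w values below both 2 w values, as did 5708 of the 22934 tested probes. Hba-a1 (alpha globin) and Alas2, which makes the first intermediate of heme, did not pass, with changes of -0.28 and -0.30. Erythroid messages belong to red cell precursors and reticulocytes and not to the leukocytes that the filter is meant to retain. Of 26 cell cycle genes tested, 6 fell and 1 rose, with a median of -0.27 that turned to 0.00078 with no scaling between arrays. Cenpf fell by 1.15, Ube2c by 0.86, Ccna2 by 0.84 and Mki67, the proliferation marker, by 0.75, and Mcm5, a replication helicase subunit, rose by 0.51. Of 15 platelet genes 2 fell and 1 rose, and the median of -0.15 turned positive with quantile normalization and with no scaling. Of all tested probes, 4.50% fell and 4.78% rose, and of those well above background on all 4 arrays 13.3% passed in either direction.

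Immediate early genes, which cells switch on within minutes of a stimulus, did not move as a block. Of 16 tested, 9 rose and 3 fell, with a median of 0.56. Egr1 rose from -4.90 and -5.11, with 1 of the 2 w arrays above background, to -2.28 and -2.10. Fos rose from -2.55 and -2.63 to -1.25 and -1.28, and Jun by 1.62. The phosphatase genes Dusp1 and Dusp2 fell by 0.43 and 0.34, and Jund by 0.66. Of 10 chaperone genes 4 rose, with 1.33 for Hspa1a, and 1 fell. Of 12 clock genes tested, 1 rose, Bhlhe40 with 1.31.

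Some probes were above background at 1 of the weeks alone. Among the largest bounds were those for Wnt2, a secreted signalling protein, at least 5.91-fold higher at 4 w, the fatty acid-binding protein gene Fabp7, at least 4.69-fold, Aif1, which marks macrophages, at least 4.52-fold, and Alox15. In the other direction, the transcription factor gene Grhl2 was at least 3.04-fold lower, Susd4 at least 2.50-fold, Myom2 at least 2.25-fold, Unc80 at least 2.05-fold and Itgb8, an integrin chain, at least 2.04-fold.

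The lists together held 185 genes past the threshold, and all but Cxcl9 kept their direction under each alternative that gave them a value. For many of the alternatives this was fixed in advance. Leaving out 1 array cannot turn a change whose weeks do not overlap, and blocks, filters and samples in the fit leave the change nearly as it was. With normexp 24 of the 185 passed. Those included Saa3, C4b, C3, Retnla, Fcgr1, Ccl3, Ccl4, Ccr2, Adgre1, Cxcr6 and Epb42, and of the called genes of each list they comprised 4 of 13 for monocytes, 1 of 6 for macrophages, 3 of 5 chemokine ligands, 1 of the 3 antiviral genes that fell (Rsad2) and 0 of 12 of the interferon gamma list. Without 4 w replicate 2, the array with the fewest spots above background, 126 of the 185 passed. The interferon gamma list then kept 5 of its 12, the mature neutrophil list 1 of 5, the B cell list 3 of 7 and the oxidase list 1 of 5, against 11 of 13 for monocytes and 9 of 10 for the erythroid list. With the slide as a random block, 9 of 14 mature neutrophil genes and 8 of 19 cytotoxic genes rose, and 6 of 21 T cell markers and 5 of 15 platelet genes fell.

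The arrays at 0 w, 8 w and 9 w enter neither side of the step and show where its genes stood before and later. They do enter the spread per probe that all the tests share. Probes with a small spread thus pass more easily in the step and in the later weeks alike. The shares of all tested probes given here are not matched for this. Of the 1096 probes that rose, 615 (56.1%) were higher at 8 w than at 0 w and 119 (10.9%) lower, where 10% (2296) and 13.9% (3189) of all tested probes were. At 9 w, 516 (47.1%) were higher than at 0 w and 190 (17.3%) lower, against 13.4% and 14.2% of all tested probes. Of the 1033 that fell, 248 were lower and 238 higher at 8 w, and at 9 w 127 (12.3%) were lower and 538 (52.1%) higher. The genes named above followed different courses. Fcgr1 had means of -3.80, -3.38, -1.06, -0.22 and -0.85 from 0 w through 2 w, 4 w and 8 w to 9 w, and Retnla of -3.05, -3.51, -0.76, -0.84 and -2.05 by its dimmer probe. Ccl3 had -2.15, -2.12, 0.39, -1.49 and -2.22, and Cxcr6 -0.50, -0.48, 1.47, -0.02 and 0.16. Fcgr1 thus stood highest at 8 w, whereas Ccl3 and Cxcr6 had their highest means at 4 w. Car2 was back at 3.40 at 8 w and 3.91 at 9 w, beside 3.92 at 2 w.

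The step was set against the same weeks in B6 mice, with 2 samples at 4 w and 1 at 2 w, by the test of the strain difference. This passed for 4483 of 22930 probes (19.6%), with a DBA/2 change above the B6 change for 2650 and below it for 1833. A difference can come from the B6 samples alone, as for the platelet genes, where the difference was called for all 15 and below 0, although 2 fell in DBA/2 mice. The comparison contains the DBA/2 step and rests on the lone B6 sample at 2 w, which is assumed to vary as the others do. Of the 40 probes with the largest changes or bounds, chosen on the DBA/2 step, 35 differed between the strains. Fn1 changed by 2.65 in DBA/2 mice and by -2.53 in B6 mice, and Retnla by 2.75 and -5.67. Ccl3 moved up in both strains, by 2.51 and 1.42. The B6 means of Fn1 and Retnla were lowest in the 4 w samples, -5.47 and -6.76. For 0 w, 2 w and 8 w they were -2.08, -2.94 and -2.31 (Fn1) and -2.07, -1.10 and -2.22 (Retnla). Both probes were well above background on 1 of the 3 B6 arrays of the step. Why the 4 w samples were low was not tested. In the B6 mice, hepatocyte genes moved as well, with Alb at -2.37 at 2 w and -6.71 at 4 w and Fabp1 at -2.91 and -6.86, and their part in the strain difference was not tested.

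**Figure D5:**
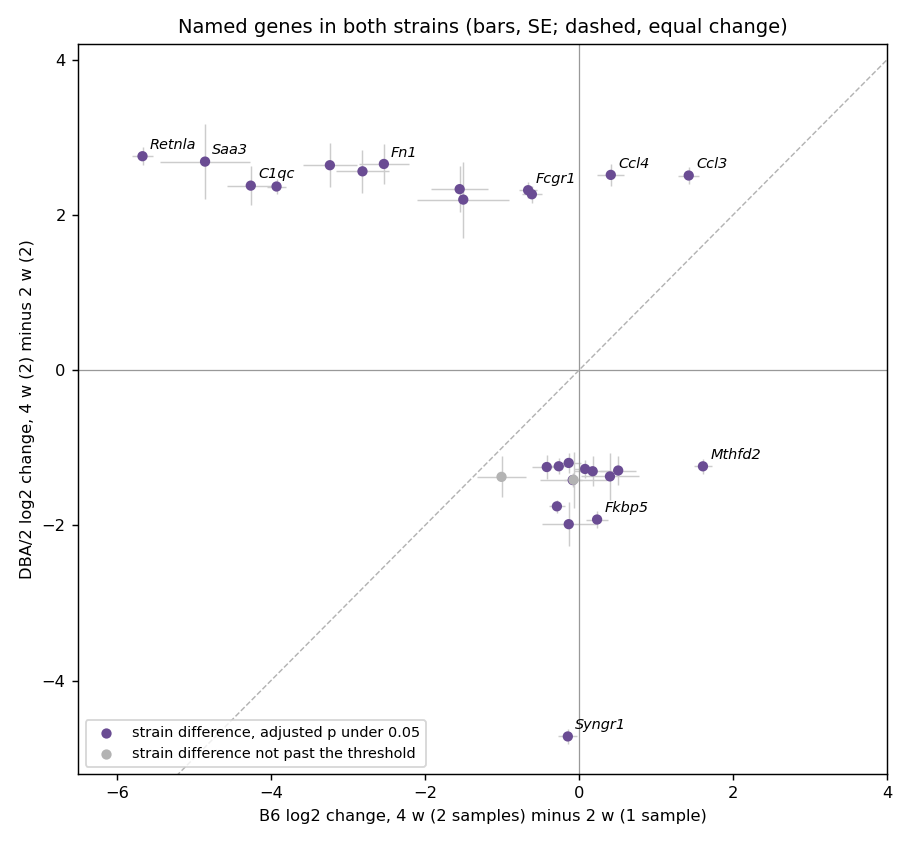
Log2 change from 2 w to 4 w in DBA/2 mice (y axis) against that in B6 mice (x axis) for 13 of the 15 largest rises and the 15 largest falls of the DBA/2 step. Bars are SE of the limma fit, the dashed line is equal change, and purple points have a strain difference with an adjusted p under 0.05. Retnla and Fn1 lie at the upper left, with B6 changes of -5.67 and -2.53, and the falls lie mostly near 0 on the B6 axis.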

How the data were processed

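Cy3-labelled leukocyte RNA of DBA/2 and B6 mice was run on 1-color Agilent whole mouse genome arrays. The authors deposited, per array, the output of Agilent Feature Extraction 9.5.3.1, in which the processed signal is a linear intensity with background subtracted and trends within the array removed, not normalized between arrays. The deposited value table gives this intensity as a mean of each probe's spots.

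The log2 signal of 41174 non-control probes was taken without spots marked as outliers, spots of a probe were averaged, and each array's 75th percentile over the 11533 probes that every one of the 19 arrays measured well above background was subtracted. Probes that reached this in 2 or more of the 18 samples (22936, of which 22934 had values for the step) entered lmFit and eBayes (limma 3.58.1, R 4.3.3) with a mean for each of 10 groups, 8 residual and 1.37 prior degrees of freedom, and p adjusted by the Benjamini-Hochberg method (threshold 0.05). All groups share the spread, as a fit of the 4 arrays alone has little. The arrays of 1 RNA hybridized to a pair of arrays (B6 0 w) were averaged. A probe that no array of a week measured above background is given as "at least" a fold, against the higher of its own value and the lowest signal that the array called well above background. The other week enters by the mean of its arrays, also where 1 of them was not above background. There the fold is no strict bound, and such folds were computed on the processed signal and not with normexp. The number of arrays limits the precision.

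Named genes are the 15 largest rises and falls well above background on all 4 arrays without overlap, 1 probe per gene and no clone or provisional names, the 5 largest "at least" folds each way, and members of the gene lists, each by its brightest tested probe. Some genes that the rules take in are not reported here and remain in the counts and medians. The arrays, lists and rules were chosen with earlier results of these data known. Names came from RefSeq accessions for 24367 probes, from the files for 6307, from synonyms for 2425, and 8075 kept the file's name. Probe positions are those of the files (mm8). All lists are described by counts and medians. The procedure was tested on simulated data for 22936 probes and recovered 54 of 100 changed 2-fold and 66 of 100 changed 4-fold, with 9 false calls. The simulated samples varied independently, whereas arrays of a slide correlated by 0.398 in the fit with the slide as a random block. The false calls are therefore those of the simulated setting and not an error rate of these data. Alternatives covered background correction (normexp, offset 50), scaling, filters, floor (10), blocks, samples in the fit, each replicate left out and array weights. Python 3.11.15 with pandas 2.3.3, numpy 2.4.6 and matplotlib 3.10.9 was used for tables and plots.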

Additional observations from a re-analysis of the deposited data

Results flagged for a closer look

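The change from 2 w to 4 w differed between the strains, by limma's test of the difference, for 4483 probes. B6 mice are represented at 2 w by 1 sample, and the genes below were chosen on the DBA/2 step, which the difference contains. As log2 of the DBA/2 change minus the B6 change, it was 8.42 for Retnla, 7.54 for Saa3, 6.64 for C1qc, 6.29 for Prg4, 5.87 for C4b, 5.37 for C1qa, 5.32 for Fabp7 and 5.19 for Fn1. Smaller positive differences were 4.15 for Alox15, 4.04 for Wnt2, 3.88 for Fcna, 3.70 for Cbr2, 3.64 for Aif1, 2.98 for Fcgr1, 2.88 for Clec10a, 2.10 for Ccl4 and 1.08 for Ccl3.

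Among the falls of the DBA/2 step, the difference was -4.57 for Syngr1, -3.31 for Itgb8, -2.97 for Myom2, -2.85 for Mthfd2, -2.16 for Fkbp5, -1.85 for Mmrn2, -1.80 for Adamtsl3, -1.77 for Creb3l3 and -1.70 for Susd4. It was -1.48 for Ube2o, -1.47 for Ddit4, -1.35 for Pik3ip1, -1.33 for Ube2s, -1.06 for Nqo1, -0.98 for Prpf18 and -0.83 for Tmem52b. Differences that involve a week not well above background are fitted values and no bounds. Retnla, Saa3, C1qc, Prg4, C4b, C1qa, Fn1, Alox15 and Aif1 were well above background on 1 of the 3 B6 arrays of these weeks. Fabp7, Wnt2, Fcna, Cbr2, Myom2 and Susd4 were well above background on none of them. Among the B6 samples, Alb stood at -2.37 at 2 w and -6.71 at 4 w, and its part in these differences was not tested.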

How the results depend on the processing

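The number of probes past the threshold for the step depended on background correction, scaling, filter and samples. Beside 2129 probes (1096 higher, 1033 lower), it was 92 with normexp (45 and 47), 574 with each array scaled to its median (359 and 215, 62.5% higher against 51.5%), 4101 without scaling (3693 and 408, 90.1% higher), where the median of all probes moved from -0.02 to 0.253, and 878 without a filter on dim probes (416 and 462). With the slide as a random block it was 3977 (2150 and 1827), with the 10 DBA/2 arrays only 1268 (589 and 679), with the 4 arrays alone 0 (0 and 0), and 1151 probes changed 2-fold or more with no test (549 and 602). With the replicate number as a block 3071 probes passed, and 427 falls were also lower at 8 w than at 0 w. The 2 w and 4 w arrays of a number share a slide and are paired by it. Deviations from the group means of same-numbered arrays correlated by 0.337 between these weeks and by 0.334 to 0.403 among 0 w to 8 w, against 0.017 to 0.053 with 9 w, whose arrays lay on other slides. The slide as a fixed block, chosen after the data had been seen, passed 3010 probes, with 547 falls also lower at 8 w. Leaving out each replicate in turn gave 1054 to 1427 probes, 433 to 586 higher and 492 to 859 lower. The share of higher calls was 41.1% without 2 w replicate 2 and 39.8% without 4 w replicate 1. The list counts without 4 w replicate 2 were chosen after the data had been seen.

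The strain difference, 4483 probes, was 408 with normexp, 1624 with the array median and 2105 without a filter, and 3171 to 3805 with each replicate left out. Of the rises, 615 were also higher at 8 w than at 0 w, and this was 28 with normexp, 268 with the array median, 252 without a filter, 1038 with the slide as a random block, 386 with the DBA/2 arrays only, 169 by 2-fold with no test and 302 to 383 with each replicate left out. For the 248 falls also lower at 8 w, it was 1, 17, 54, 609, 148, 140 and 94 to 198 in the same order, and 157 with quantile normalization, 138 with the 75th percentile over all probes and 106 without scaling. The 40 named probes kept their direction in all 874 comparisons with an alternative, and 115 of these lost the call, 29 with normexp and 40 with the 4 arrays alone. As for the list genes, many of the alternatives could not have turned the direction. Of the lists, 11 had a median that changed sign under some alternative. Signal over background limits the dim probes, since 79 rises and 46 falls had a week with no array well above background.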
